A study of Saccharomyces cerevisiae with 56 samples.

Results

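When the MATa locus of haploid yeast is cut by the HO endonuclease, a small share of the surviving colonies carries a piece of DNA copied from elsewhere, joined into the repaired break. Break-Ins finds these templated insertions by amplicon sequencing of the repaired locus from pooled colonies, and each inserted piece is traced to its donor, the place in the genome that it matches. The donors of rfa1-t33 rad27, a double mutant with a weakened form of RPA and no Rad27, were compared here with those of rtt105 rad27, a double mutant without the RPA chaperone Rtt105 and without Rad27. The members were all donors in the lists that carry the name of each genotype, 69 for rfa1-t33 rad27 and 317 for rtt105 rad27, of 1620 donors in the lists used from 16 genotypes.

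All strains derive from JKM139 and share MATa, ade3::GAL10::HO, hmr::ADE1 and hml::ADE1, DELho, and the markers ura3-52, trp1::hisG, lys5, leu2-3 112 and ade1, in which galactose induces HO and no silent mating-type cassette is left to repair the cut. The rfa1-t33 rad27 strain carries the rfa1-t33 allele and rad27::klTRP1 and was sequenced in 2 libraries of 14304 and 672 colonies, so that 1 library held 95.5% of its 14976 colonies. The rtt105 rad27 strain carries rtt105::hphMX and rad27::klTRP1 and was sequenced in 3 libraries of 19968, 60960 and 30912 colonies, 111840 in all. Each double mutant was a single strain grown at 30 °C, as were the rtt105 and rfa1-t33 single mutants set beside them, while the rad27 single mutant also had libraries at 23 °C and 37 °C. The lists pool the libraries of a genotype and give neither a read number nor a library, so donors and insertions were the units of every test and no spread between libraries can be given. All donors of each double mutant came from 1 sequencing run, and the runs differed, so genotype and run cannot be told apart. The deposited list of libraries assigns to the rfa1-t33 rad27 libraries other lists, named for rtt105 with RFA1-t33. The lists that bear the genotype's own name were used here, and the results stand on that name. No donor of either genotype lay in RAD27, RTT105 or RFA1, and positions of donors give no other check of a genotype.

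RPA covers single-stranded DNA during replication, resection and repair, and Rfa1 is its largest subunit. Rtt105 binds RPA, brings it into the nucleus and helps it load on DNA. Rad27, called FEN1 in human cells, cuts the 5′ flaps that form when Okazaki fragments are joined on the lagging strand. Both double mutants thus lack Rad27, while Dna2, which also cuts such flaps, is left, and RPA is impaired, in one through the protein itself and in the other through its chaperone.

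Insertions from outside the mating-type loci were listed more often per colony in rfa1-t33 rad27 than in rtt105 rad27. They numbered 64 among 14976 colonies of rfa1-t33 rad27, or 42.7 per 10000 colonies (95% interval 32.9 to 54.5), against 299 among 111840 colonies of rtt105 rad27, or 26.7 per 10000 (23.8 to 29.9). The ratio was 1.60 (1.20 to 2.10, Fisher's exact test, two-sided, p = 0.00107). The denominators are all labelled colonies, whereas the study normalizes its colony numbers by HO cutting, which was not done here. Reads per colony are unknown for both genotypes, so a difference in detection cannot be told apart from one in frequency. Insertions with a nuclear donor gave 40.1 per 10000 in rfa1-t33 rad27 and 24.4 in rtt105 rad27, a ratio of 1.64 (1.22 to 2.18, Fisher's exact test, p = 8.64e-04). All intervals are exact and, like the tests, cover counting error only, since the lists pool libraries and give no spread between them. PCR reads that carry no molecular identifier cannot be counted as separate molecules, a further limit that the intervals do not cover.

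**Figure D1:**
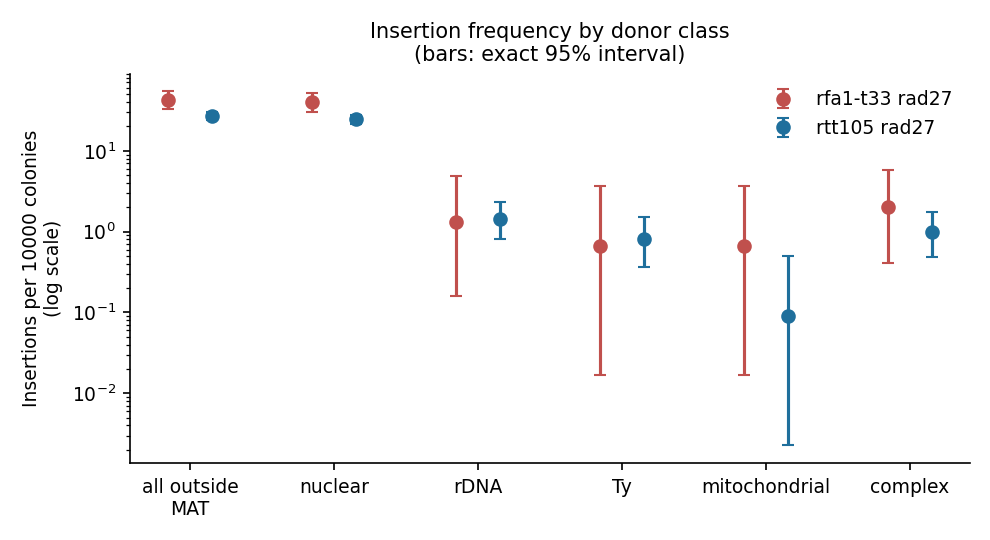
Insertions per 10000 colonies, on a log axis, for rfa1-t33 rad27 (red, left of each pair) and rtt105 rad27 (blue), by donor class, with exact 95% intervals as bars. All insertions outside MAT stood at 42.7 in rfa1-t33 rad27 and 26.7 in rtt105 rad27, and the intervals of the rDNA, Ty, mitochondrial and complex insertions overlapped.

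Most donors of both double mutants came from the nuclear chromosomes outside repeated elements. Nuclear donors were 63 of 67 outside MAT in rfa1-t33 rad27 (94%, 95% interval 85.4 to 98.3) and 284 of 310 in rtt105 rad27 (91.6%, 88 to 94.5). The rDNA, the tandem array of ribosomal RNA genes on chromosome XII, gave 2 donors in rfa1-t33 rad27 and 16 in rtt105 rad27 (2.99% and 5.16%). The 2 of rfa1-t33 rad27 lay within RDN25-1 (454921 to 455058) and between RDN37-1 and RDN5-1 (459087 to 459171). Ty retrotransposons, which copy themselves through cDNA, gave 1 donor in rfa1-t33 rad27 and 9 in rtt105 rad27 (1.49% and 2.90%). The Ty donor of rfa1-t33 rad27 was 99 bp long and lay in the element on chromosome XIII that holds YML039W and YML040W. Of the 9 in rtt105 rad27, 5 matched YPL257W-B on chromosome XVI, and Ty copies are near-identical, so the copy named is uncertain. Mitochondrial DNA gave 1 donor in each, of 128 bp between the mitochondrial tM(CAU)Q1 and COX2 genes in rfa1-t33 rad27 and of 133 bp in COX2 in rtt105 rad27. No class differed past the threshold (two-sided Fisher's exact test with adjustment over 4 classes, each adjusted p = 1.00), and with 67 donors in rfa1-t33 rad27 a class at 0 could still have held up to about 4.48% (3 divided by 67, an approximate limit).

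The clearest difference between the double mutants was the length of the inserted DNA. Single nuclear donors, those that were the only donor of their insertion, were longer in rfa1-t33 rad27. Their lengths ran from 36 to 270 bp in rfa1-t33 rad27, with a median of 103 bp (95% interval 98 to 116, n = 57 donors) and quartiles of 92 and 124 bp. In rtt105 rad27 they ran from 25 to 463 bp, with a median of 70 bp (66 to 74, n = 262 donors) and quartiles of 54 and 96 bp. The intervals of the medians did not overlap. Of the rfa1-t33 rad27 donors, 50 of 57 (87.7%) were longer than the joint median of 74 bp, against 109 of 262 (41.6%) in rtt105 rad27 (Fisher's exact test, two-sided, p = 6.30e-11).

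From 80 to 150 bp, a range chosen after the values were seen, stood 42 of 57 donors in rfa1-t33 rad27 (73.7%) and 60 of 262 (22.9%) in rtt105 rad27. Donors over 100 bp were 34 of 57 in rfa1-t33 rad27 (59.6%, 45.8 to 72.4) and 60 of 262 in rtt105 rad27 (22.9%, 17.9 to 28.5, Fisher's exact test, p = 2.36e-07). Donors under 50 bp were 3 in rfa1-t33 rad27 (5.26%) and 45 in rtt105 rad27 (17.2%, p = 0.0234, Fisher's exact test). With limits of 60 and 120 bp, the difference in long donors was 13.9 points in place of 36.7 and that in short donors -23.1 points in place of -11.9 (Fisher's exact test, p = 0.0171 and 1.82e-04). Above 200 bp there was 1 donor in rfa1-t33 rad27 (1.75%), the 270 bp donor in WWM1, and 23 in rtt105 rad27 (8.78%), a difference that was not tested.

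**Figure D2:**
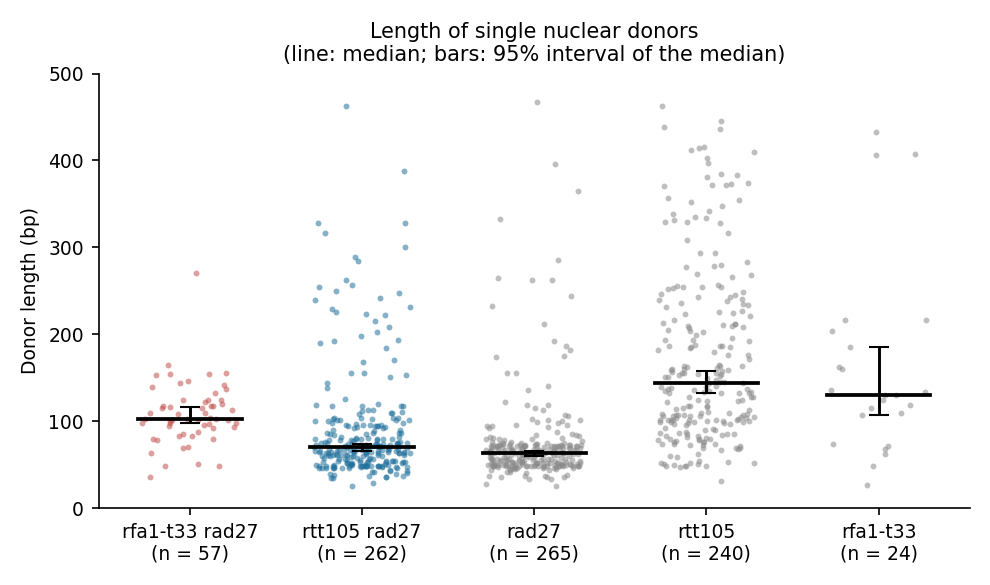
Length in bp of each single nuclear donor (points) in rfa1-t33 rad27, rtt105 rad27 and the rad27, rtt105 and rfa1-t33 single mutants, with the median (line) and its 95% interval (bars). The medians were 103, 70, 63, 144 and 130 bp in that order, and 1 rfa1-t33 rad27 point lies above 200 bp.

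Most of the long donors of rtt105 rad27 lay near chromosome ends. Within 20 kb of an end its single donors had a median of 132 bp (96 to 192, n = 50), against 66 bp (63 to 70, n = 212) in the interior, and 64% against 13.2% were over 100 bp (Fisher's exact test, p = 1.39e-12). Near ends, single donors of the rad27 single mutant also had a longer median, 115 bp (n = 41) against 61 bp (n = 224) in the interior. Of the rad27 donors, 53.7% near ends against 3.57% in the interior were over 100 bp (Fisher's exact test, p = 1.0e-14). Both comparisons were added after the values were seen. The 3 end-proximal donors of rfa1-t33 rad27 measured 101, 120 and 139 bp and lay between YJL225C and PAU1, in YLL066W-B and in GEX2, a glutathione exchanger. Among interior donors alone, the rfa1-t33 rad27 median was 103 bp (98 to 115, n = 54) and the rtt105 rad27 median 66 bp, with 57.4% and 13.2% over 100 bp (Fisher's exact test, p = 1.06e-10). Without the end-proximal donors, the medians of the double mutants were thus 37 bp apart.

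Donors inside protein-coding genes showed the same gap, with a median of 106 bp (100 to 118, n = 34) in rfa1-t33 rad27 and 67 bp (63 to 71, n = 144) in rtt105 rad27. Over 100 bp were 67.6% in rfa1-t33 rad27 and 12.5% in rtt105 rad27 (Fisher's exact test, p = 3.00e-10). Between genes the medians were 108 bp (70 to 132, n = 14) in rfa1-t33 rad27 and 75 bp (66 to 93, n = 92) in rtt105 rad27, and the share over 100 bp did not pass (57.1% and 34.8%, Fisher's exact test, p = 0.141). For interior donors between genes, the medians were 115 bp (n = 13) in rfa1-t33 rad27 and 65 bp (n = 54) in rtt105 rad27. Over 100 bp were 53.85% and 11.11% of them, a difference that was not tested.

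**Figure D3:**
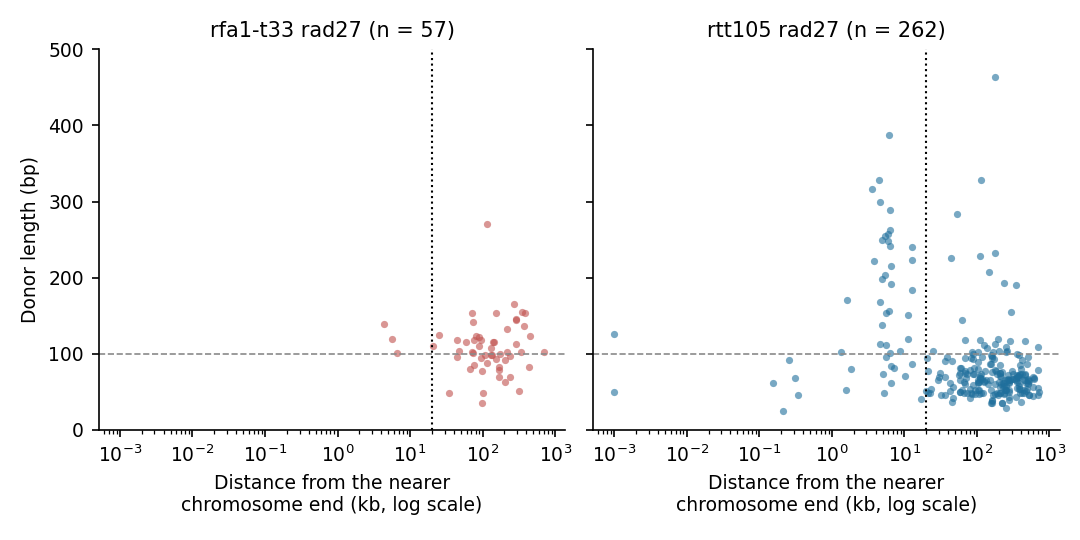
Length in bp of single nuclear donors against the distance in kb from the nearer chromosome end, on a log axis, for rfa1-t33 rad27 (left, n = 57) and rtt105 rad27 (right, n = 262). The dotted line marks 20 kb and the dashed line 100 bp, donors at the end itself are drawn at the left edge of the points, and 3 rfa1-t33 rad27 and 50 rtt105 rad27 donors stand left of the dotted line.

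Set beside the single mutants, the rtt105 rad27 median of 70 bp stood 7 bp above that of rad27 (63 bp), and the rfa1-t33 rad27 median of 103 bp stood 40 bp above it. The share of single nuclear donors over 100 bp was 59.6% in rfa1-t33 rad27, 22.9% in rtt105 rad27, 11.3% in rad27 (n = 265), 73.3% in rtt105 (n = 240) and 75% in rfa1-t33 (n = 24). Against rad27, both double mutants had more donors over 100 bp (Fisher's exact test, adjusted over 6 comparisons, p = 1.95e-13 for rfa1-t33 rad27 and 7.18e-04 for rtt105 rad27). Against the rtt105 single mutant, rtt105 rad27 had fewer (adjusted p = 6.55e-30, Fisher's exact test), a difference of 74 bp between the medians of 70 and 144 bp. Against the rfa1-t33 single mutant, rfa1-t33 rad27 did not pass (59.6% and 75%, Fisher's exact test, adjusted p = 0.215), though its interval of 45.8 to 72.4% and that of 53.3 to 90.2% for rfa1-t33 leave room for a difference. These comparisons were added after the values were seen. No single mutant shared a run with rfa1-t33 rad27, while the rfa1-t33 single mutant shared its run with rtt105 rad27. The rad27 list pools 14 libraries, of which 3 were labelled 23C and 3 were labelled 37C.

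In rfa1-t33 rad27, the nuclear donors were spread over all 16 chromosomes. Of its 63 nuclear donors, 35 lay wholly inside a protein-coding gene (55.6%, 42.5 to 68.1), 18 between genes (28.6%, 17.9 to 41.3) and 10 across a gene's edge, in a noncoding gene or over overlapping features. In rtt105 rad27, 146 of 284 lay inside a protein-coding gene (51.4%, 45.4 to 57.4), 111 between genes (39.1%, 33.4 to 45) and 27 elsewhere. Genes that gave rfa1-t33 rad27 donors included XRN1, the cytoplasmic 5′ exonuclease of mRNA decay (100 bp), PHO4, the activator of phosphate genes (118 bp), GPA1, the Gα subunit of the pheromone response (88 bp), GLT1, glutamate synthase (153 bp), MMM1, a subunit that tethers mitochondria to the ER (98 bp), and TAT2, a tryptophan permease (144 bp). Where the donor lay in 1 coding gene, its listed strand was that of the gene in 20 of 35 in rfa1-t33 rad27 (57.1%, 39.3 to 73.7) and 86 of 146 in rtt105 rad27 (58.9%, 50.5 to 67).

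The share of donors near chromosome ends was lower in rfa1-t33 rad27, on the edge of the threshold. Within 20 kb of an end lay 3 of 63 (4.76%, 0.993 to 13.3) in rfa1-t33 rad27 and 50 of 284 (17.6%, 13.4 to 22.5) in rtt105 rad27. The difference did not pass after adjustment over 5 positions (Fisher's exact test, p = 0.0106, adjusted p = 0.0532), and passed with single donors alone (adjusted p = 0.0494, Fisher's exact test). Counted as loci merged within 500 bp, the difference was -5.95 points in place of -12.8 and did not pass (Fisher's exact test, adjusted p = 0.705), nor did limits of 10 and 30 kb (adjusted p = 0.183 and 0.0938). Within 1 kb of an end lay 0 of 63 in rfa1-t33 rad27, with an exact interval up to 5.69%, and 7 of 284 in rtt105 rad27 (2.46%, Fisher's exact test, adjusted p = 0.597). The 50 of rtt105 rad27 fell at 25 loci, 7 of which held 3 or more donors and 28 donors together, while the 3 of rfa1-t33 rad27 were at 3 loci. Of single-mutant nuclear donors, 17.0% of 312 in rad27, 7.12% of 281 in rtt105 and 13.3% of 30 in rfa1-t33 lay within 20 kb. End-proximal sequence is repeated among chromosomes, so the copy to which such a donor was assigned is uncertain.

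Transfer RNA genes, where replication forks are known to pause, lay within 0.2 kb of 2 donors in rfa1-t33 rad27 (3.17%) and 5 in rtt105 rad27 (1.76%, Fisher's exact test, adjusted p = 0.615). The 2 of rfa1-t33 rad27 were a 95 bp donor across SUF6, a glycine tRNA gene on chromosome XIV, and a 115 bp donor beside SUP6, a tyrosine tRNA gene on chromosome VI.

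**Figure D4:**
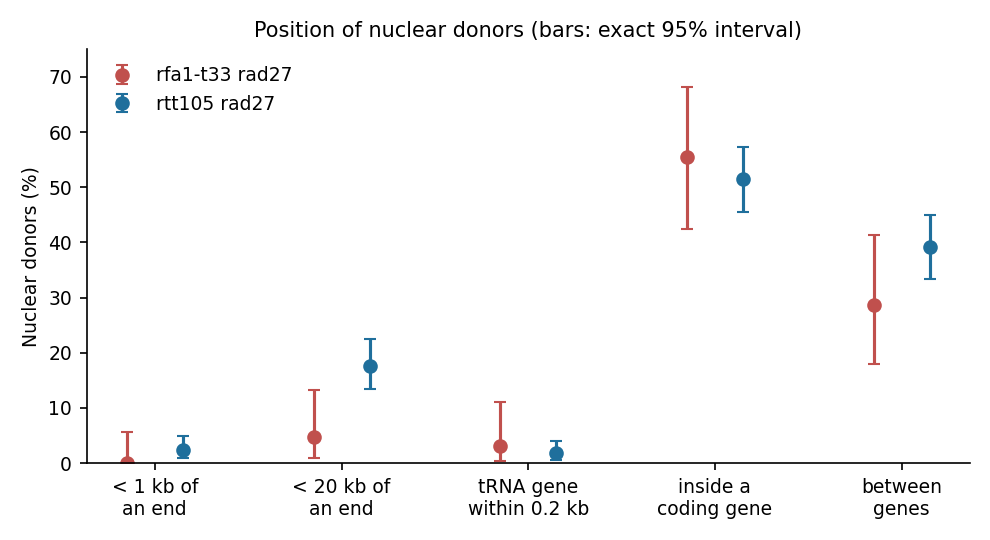
Percent of nuclear donors at 5 kinds of position for rfa1-t33 rad27 (red, left of each pair, n = 63) and rtt105 rad27 (blue, n = 284), with exact 95% intervals as bars. Within 20 kb of an end stood 4.76% of rfa1-t33 rad27 and 17.6% of rtt105 rad27 donors, and the other pairs of intervals overlapped widely.

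Few donors fell in the gene groups listed for comparison. Of 138 ribosomal protein genes, RPL16A held 1 donor in rfa1-t33 rad27 (78 bp), and none held a donor in rtt105 rad27. Of 48 cell wall genes, FLO1 and FLO11, flocculins with internal tandem repeats, held 1 donor each in rfa1-t33 rad27 (110 and 104 bp, 3.17% of its donors), and SED1 and HPF1 held 1 each in rtt105 rad27 (69 and 66 bp, 0.704%). Of 76 snoRNA genes, SNR43 was overlapped by 1 donor in rfa1-t33 rad27 (98 bp) and none in rtt105 rad27. Of 275 nuclear tRNA genes, SUF6 was overlapped in rfa1-t33 rad27 and SUF20, also a glycine tRNA gene, in rtt105 rad27 (95 and 47 bp). Hexose transporter genes held 0 donors in rfa1-t33 rad27 and 1 in rtt105 rad27, in HXT14 (96 bp). The Y′ helicase genes held 0 in rfa1-t33 rad27 and 2 in rtt105 rad27, both in YRF1-7 (53 and 171 bp).

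Donors of the double mutants lay near each other more often than the covered share of the chromosomes. Within 1 kb of an rtt105 rad27 donor stood 11 of the 63 rfa1-t33 rad27 donors (17.5%, 9.05 to 29.1), while those surroundings covered 4.14% of the chromosomes, which corresponds to 2.61 donors (exact binomial test, one-sided, p = 5.08e-05). In the other direction, 16 of the 284 rtt105 rad27 donors (5.63%, 3.25 to 8.99) stood within 1 kb of an rfa1-t33 rad27 donor, against a covered share of 1.09% (exact binomial test, one-sided, p = 1.48e-07). The test takes every chromosome position as equally likely to be listed and every donor as independent. At 0.2 kb the shares were 11.1% of rfa1-t33 rad27 donors against 1.15% covered, and at 5 kb 36.5% against 17.3%. Counted as loci merged within 500 bp, the share was 14.8% for rfa1-t33 rad27 (exact binomial test, p = 8.74e-04) and 3.91% for rtt105 rad27 (p = 0.00109, exact binomial test). No donor of one list matched a donor of the other within 5 bp at both ends, among donors outside MAT.

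Single-mutant donors lay near those of rtt105 rad27 as well. Donors of the rad27 single mutant stood within 1 kb of an rtt105 rad27 donor in 20.8% of 312 cases, those of rtt105 in 9.96% of 281 and those of rfa1-t33 in 20% of 30, against 17.5% for rfa1-t33 rad27. None of the 3 differences was past the threshold (two-sided Fisher's exact test with adjustment over 6 comparisons, adjusted p = 0.732, 0.242 and 0.780). The covered shares were 4.06% for rad27, 4.20% for rtt105 and 4.17% for rfa1-t33. The rfa1-t33 single mutant shared its sequencing run with rtt105 rad27 and not with rfa1-t33 rad27. Around rfa1-t33 rad27 donors the shares were 5.63% for rtt105 rad27, 2.56% for rad27, 2.13% for rtt105 and 0 of 30 for rfa1-t33. The differences had adjusted p of 0.188, 0.188 and 0.571 in Fisher's exact test. Here rad27 had 8 donors where its covered share corresponds to 3.40. For rtt105 it was 6 against 3.17, and for rfa1-t33 0 against 0.336. Single-mutant shares were not tested against covered shares. With the rad27 list as the landmark, 9.52% of rfa1-t33 rad27 donors (3.58 to 19.6) stood within 1 kb, against a covered share of 4.71%. Of rtt105 rad27 donors, 27.5% (22.4 to 33.1) did, against 4.64% covered. Both are given as a description and were not tested.

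**Figure D5:**
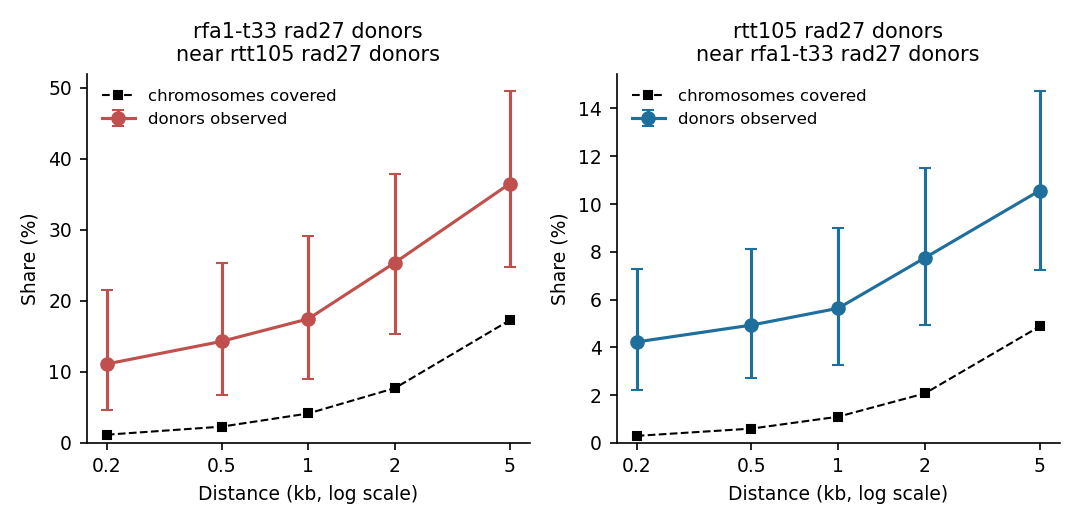
Left, percent of rfa1-t33 rad27 donors within a given distance (kb, log axis) of an rtt105 rad27 donor, and right, the reverse, with exact 95% intervals as bars and the share of chromosomes covered as squares. At 1 kb the observed shares were 17.5% (left) and 5.63% (right), above the covered shares of 4.14% and 1.09%, and the vertical scales of the panels differ.

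The donors within 1 kb of each other formed 9 loci, with 11 donors of rfa1-t33 rad27 and 16 of rtt105 rad27. Of these loci, 8 lay more than 20 kb from a chromosome end. At 4 of them donors of both genotypes overlapped. Of the single mutants, rad27 (312 nuclear donors) had donors at 3 of the loci, and rtt105 (281) and rfa1-t33 (30) at 0. The loci are short and no expected number of donors was calculated for them, so these counts are a description. Coordinates are those of the R64 genome.

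The most used of them lay on chromosome VI between CDC14, the phosphatase of mitotic exit, and SUP6, 159 bp from the tRNA gene (210328 to 210460). It gave 1 donor of 115 bp in rfa1-t33 rad27 and 5 donors of 50 to 75 bp in rtt105 rad27. The rfa1-t33 rad27 donor was longer than each of the 5 and overlapped them. On chromosome IV, between RTN1, a reticulon that shapes the ER, and LYS4, of lysine synthesis (930910 to 931007), each genotype had 2 donors. They measured 65 and 39 bp in rfa1-t33 rad27, where both belonged to 1 complex insertion, and 74 and 56 bp in rtt105 rad27. In WWM1 on chromosome VI (115359 to 115628), the 270 bp donor of rfa1-t33 rad27 contained the whole 48 bp donor of rtt105 rad27. At YLL066W-B near the left end of chromosome XII (5460 to 5714), rfa1-t33 rad27 had 1 donor of 120 bp and rtt105 rad27 had 3 of 96, 153 and 255 bp.

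At the other 5 loci the donors were neighbours that did not overlap. In CTK3, a subunit of a kinase of the RNA polymerase II tail, they measured 96 bp in rfa1-t33 rad27 and 37 bp in rtt105 rad27, 382 bp apart. In ARO1, the multifunctional enzyme of aromatic amino acid synthesis, they were 103 and 50 bp and 594 bp apart. In PSR1, a plasma membrane phosphatase, they were 108 bp in rfa1-t33 rad27 and 78 bp in rtt105 rad27. On chromosome VII, the 124 bp rfa1-t33 rad27 donor lay in TWF1, which encodes the actin-binding protein twinfilin, and the 49 bp rtt105 rad27 donor in the adjacent YGR079W. Between YHR131C and ECM14 on chromosome VIII, rfa1-t33 rad27 had the 54 and 31 bp parts of 1 complex insertion. The rtt105 rad27 donor, 120 bp long and 81 bp away, overlapped ECM14.

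No single locus passed the test for a difference in use. When the nuclear donors of both genotypes were merged within 500 bp, 284 loci resulted, 54 with rfa1-t33 rad27 donors alone, 223 with rtt105 rad27 donors alone and 7 with both. Fisher's exact test (two-sided) called 0 of the 284 loci after adjustment (0%), and 0 at an unadjusted p under 0.05. The smallest p in Fisher's exact test was 0.0861 before adjustment and 0.921 after it. It was found at the ECM14 locus, with 2 rfa1-t33 rad27 donors and 1 of rtt105 rad27. Differences at single loci were thus not detectable at this depth.

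Recurrence was mostly seen in rtt105 rad27, which has the larger list. Loci with 2 or more donors numbered 2 of 61 in rfa1-t33 rad27, and in both cases the donors belonged to 1 complex insertion. In rtt105 rad27 they numbered 28 of 230 and held 82 donors, and 15 loci held 3 or more. The largest held 6 donors of 61 to 289 bp on chromosome XIV between YRF1-6, a Y′ helicase gene, and COS1 (6400 to 6688), and no rfa1-t33 rad27 donor. Others with 4 donors each and none in rfa1-t33 rad27 lay between PAU4 and YLR462W on chromosome XII (86 to 240 bp), between IMD2 and YHR218W on chromosome VIII (74 to 250 bp), at YFL064C on chromosome VI (113 to 328 bp), and at the left end of chromosome III (25 to 92 bp). All 5 were within 20 kb of an end. The rad27 single mutant also had donors there: 2 between YRF1-6 and COS1, 6 between PAU4 and YLR462W and 6 between IMD2 and YHR218W. It had 3 at YFL064C and 2 at the left end of chromosome III. The rtt105 single mutant had 1 donor between IMD2 and YHR218W, and rfa1-t33 had 1 at the left end of chromosome III. Neither had a donor at the rest of these end loci. Away from the ends, SHE10 on chromosome VII held 4 donors of 60 to 118 bp (69268 to 69385), the intergenic stretch beside YCR001W on chromosome III held 3 of 239 to 328 bp, and YAT1 on chromosome I held 2 of 90 and 70 bp with 1 of 46 bp between it and MST28, all in rtt105 rad27. On chromosome II, 4 donors of 26 to 80 bp lay between MUM2 and UBP14, a ubiquitin protease gene, with 1 of them reaching into UBP14 (353598 to 353683). At these interior loci, the rad27 single mutant had 1 donor at SHE10, 1 beside YCR001W, 0 at YAT1 and 5 between MUM2 and UBP14. The rtt105 single mutant had 1 donor at the YAT1 locus and 0 at the others, and rfa1-t33 had 0 at each.

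Complex insertions, which join more than 1 donor, made up 3 of 64 insertions in rfa1-t33 rad27 (4.69%, 0.977 to 13.1) and 11 of 299 in rtt105 rad27 (3.68%, 1.85 to 6.49), a difference that did not pass (Fisher's exact test, two-sided, p = 0.720). Each held 2 donors. Of the 3 in rfa1-t33 rad27, 1 was an inverted pair, a pair of donors from the same locus on opposite strands, beside ECM14 on chromosome VIII. Its parts of 54 bp (368304 to 368357, plus strand) and 31 bp (368348 to 368378, minus strand) overlapped by 10 bp. Another joined 65 and 39 bp of the RTN1 to LYS4 locus in the same orientation, with the shorter part lying wholly within the longer one. The third joined 166 bp of ENT2, an epsin gene, to 176 bp of YDL204W-A, on chromosomes XII and IV. In rtt105 rad27, 2 of 11 were inverted pairs, of 48 and 32 bp in GAL11, a Mediator subunit gene, and of 33 and 36 bp between RPB10 and MGM1, which overlapped by 26 and 24 bp. One more joined 258 and 239 bp from the same strand beside YCR001W, 31 bp apart, and 8 joined separate loci. Inverted pairs among complex insertions, 1 of 3 in rfa1-t33 rad27 and 2 of 11 in rtt105 rad27, did not pass (Fisher's exact test, p = 1.00).

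Foldback-type donors copy the sequence beside the break itself in inverted orientation, and were taken as minus-strand donors that start at 294436 of chromosome III, where the reference holds the HMR copy that these strains lack. There were 2 in rfa1-t33 rad27, of 43 and 79 bp, and 4 in rtt105 rad27, of 43, 46, 46 and 67 bp. They gave 1.34 per 10000 colonies in rfa1-t33 rad27 (0.162 to 4.82) and 0.358 in rtt105 rad27 (0.0974 to 0.916), a ratio of 3.73 with an interval of 0.338 to 26.1 (Fisher's exact test, two-sided, p = 0.151). Donors within 5 bp counted once gave a ratio of 7.47 (Fisher's exact test, p = 0.0711). Shorter foldback events are not in these lists. The other mating-type donors were 0 in rfa1-t33 rad27 and 3 in rtt105 rad27, of 66 to 103 bp, listed at the HML side of chromosome III.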

How the data were processed

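Insertions at the HO break were amplified from pooled colonies and sequenced. The authors used BBDuk for read filtering, PEAR for read merging and BLASTN to find inserts longer than 10 bp, then collapsed redundant reads and assigned each donor. Versions of BBDuk and BLASTN are not given in the sources used here. The deposited lists hold donor start and end in other units than counts, as base pairs on the R64 genome, with 1 line per donor. Depth per library is unknown, and colonies from the labels served as denominators.

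Donors were classed with the R64 RefSeq gene table (with margins of 500 bp for rDNA, 400 bp for Ty and 700 bp for the mating-type loci). Right chromosome ends were the last annotated or donor position. Python 3.11.15, NumPy 2.4.6, pandas 2.3.3, SciPy 1.17.1 and matplotlib 3.10.9 were used. Fisher's exact tests were two-sided with Benjamini-Hochberg adjustment, intervals exact at 95%, and the tests were checked on simulated data.

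Named loci held 2 or more rfa1-t33 rad27 or 3 or more rtt105 rad27 donors (at most 12), donors of both genotypes, inverted pairs or listed genes. Members and lists were chosen with earlier results of these data known. Lists named for rtt105 with RFA1-t33 were not used.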

Additional observations from a re-analysis of the deposited data

How the results depend on the processing

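The higher insertion frequency and the longer donors of rfa1-t33 rad27, and the overlap of loci in both directions, kept their direction and side of the threshold under every alternative run. None of the alternatives varied read depth, which is unknown. Several could hardly change a call. The chi-square test reused the same counts, and counting donors within 5 bp once left 67 of 67 and 309 of 310 donors. The colonies of the larger library alone were set against all 64 insertions, which can only raise the ratio. Dropping donors shared within 5 bp removed 0 donors, so it left the overlap as it was. The frequency ratio ranged from 1.58 to 1.67, the difference of median lengths from 33 to 37 bp and the overlap from 11.1 to 36.5% of rfa1-t33 rad27 donors as the distance grew. The difference within 20 kb of a chromosome end passed with single donors only (-13.8 points). It did not pass by merged loci (-5.95 points, adjusted p = 0.705, Fisher's exact test), at 10 kb (-9.68 points) or at 30 kb (-12.5 points). Limits of 60 and 120 bp moved the difference in long donors to 13.9 points and that in short donors to -23.1 points. Foldback-type donors counted once within 5 bp gave a ratio of 7.47 (p = 0.0711, Fisher's exact test). Differences that did not pass in any setting changed sign in some. Donors inside protein-coding genes differed by -2.19 points by merged loci, donors near tRNA genes by -1.40 points at 0.5 kb and by -0.154 points with doubled class margins, and Ty donors by 0.0725 points with doubled margins. Overlap with rtt105 rad27, as rfa1-t33 rad27 minus rad27, was 4.70 points for interior donors, 0.0763 at 2 kb and 0.931 at 5 kb. As rfa1-t33 rad27 minus rfa1-t33 it was 1.28 points for interior donors, 1.11 at 0.2 kb, 5.40 at 2 kb and 16.5 at 5 kb. Interior lengths, merged lengths, 1 donor per insertion and doubled margins were alternatives chosen after seeing the data.

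No paired analysis was possible because the lists do not separate libraries, and leaving out a library was not run for the same reason. The sequence of donors was not analysed, as no genome sequence was used here. The 67 donors of rfa1-t33 rad27 outside MAT limit every comparison of small classes.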

Other observations

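In rtt105 rad27, the donors of complex insertions came often from loci that other insertions also used. Of its 22 complex donors, 13 (59.1%) lay at a locus, merged within 500 bp, with donors of at least 2 insertions, against 67 of 262 single donors (25.6%, Fisher's exact test, two-sided, p = 0.00204). Of the 11 complex insertions, 10 held such a donor. The locus between MUM2 and UBP14 gave 4 donors in 4 complex insertions and 0 single donors in rtt105 rad27, while the rad27 single mutant had 2 complex and 3 single donors there. The 4 insertions joined it to donors beside SES1, SWE1 and ZUO1, and to the locus between CDC14 and SUP6 that both double mutants used. A further 2 complex insertions held a donor from the stretch between VHR2 and ICL1 on chromosome V. In rfa1-t33 rad27, 0 of 6 complex and 0 of 57 single donors lay at a locus used by 2 insertions, and in rad27 it was 11 of 47 complex donors (23.4%) and 34 of 265 single donors (12.8%, Fisher's exact test, p = 0.0707). The comparison was made after the pattern was seen, and the 2 donors of an insertion are not independent. Donors at the same locus are not independent either, since each makes the others count as recurrent. The 4 rtt105 rad27 donors between MUM2 and UBP14, with 0 single donors there, counted among the 13 through each other alone. Fisher's exact test takes all donors as independent, so it cannot decide whether complex donors use such loci more often.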
